A study of Homo sapiens with 4 samples.

Results

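The metallothionein cluster on the long arm of chromosome 16 was examined for 53BP1 and 2 phosphorylated forms of RNA polymerase II (Pol II) in MCF10A cells, an immortalised non-tumour human breast epithelial line. Its members are the enriched regions of 3 deposited lists that share 1 bp or more with positions 56590000 to 56720000 of chromosome 16 (hg19), a stretch defined by position. They numbered 19 of 128734 regions in all, of which 5 were 53BP1 regions (of 11604), 6 were S5p regions (of 62530) and 8 were S2p regions (of 54600). For 3 genes the hg19 positions are known here. MT2A lies at 56642478 to 56643409, MT1E starts near 56659585, and MT1X lies at 56716382 to 56718108.

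All cells were grown under normal conditions, and the labels name no treatment and no genetic change. The groups are a ChIP of 53BP1, which gathers on chromatin at DNA breaks and is a partner of p53, and ChIPs of Pol II phosphorylated on serine 5 (S5p) or serine 2 (S2p) of its C-terminal repeats. An input sample belongs to the series and was not analysed here. Each ChIP had 1 library, so no value below has an error between replicates or a test, and read depth is unknown. The submitters' fold enrichment is a ratio over background within a list, and folds were ranked within their own list only. Markers of the cell line were not checked, since no other hg19 gene positions were used here.

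Metallothioneins are small, cysteine-rich proteins that bind zinc, copper and cadmium. Their genes are switched on by metals through the zinc-sensing factor MTF1, which binds short metal response elements in their promoters, and by glucocorticoids and stress. MT2A and several MT1 genes are active in many epithelia, whereas MT3 is best known from brain and MT4 from stratified squamous epithelium. S5p is known to mark Pol II near the start of genes, and S2p Pol II that elongates towards and past their end.

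In the RefSeq gene order of GRCh38.p14, used here for names only, the metallothionein genes run MT4, MT3, MT2A, MT1L, MT1E, MT1M, MT1JP, MT1A, MT1DP, MT1CP, MT1B, MT1F, MT1G, MT1H, MT1IP and MT1X. Several of these are near-identical copies, and MT1L, MT1JP, MT1DP, MT1CP and MT1IP are annotated as pseudogenes. How reads that match more than 1 copy were placed is not given in the sources used here, so the values at each gene are uncertain to that extent.

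The promoters of MT2A and MT1X are shown because, of the 3 named genes, only these had a promoter sequence here. These genes also had the strongest and the weakest 53BP1 region of the 3. Each sequence is the 250 bases before the RefSeq gene start (GRCh38.p14, forward strand), with matches to the metal response element core in capitals. The RefSeq start need not be the same base as the hg19 start given above.
MT2A: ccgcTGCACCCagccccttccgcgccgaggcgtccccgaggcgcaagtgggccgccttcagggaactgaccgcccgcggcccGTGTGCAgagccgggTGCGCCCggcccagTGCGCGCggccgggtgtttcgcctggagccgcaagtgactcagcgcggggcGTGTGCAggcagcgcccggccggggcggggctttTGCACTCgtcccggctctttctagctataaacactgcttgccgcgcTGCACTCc
MT1X: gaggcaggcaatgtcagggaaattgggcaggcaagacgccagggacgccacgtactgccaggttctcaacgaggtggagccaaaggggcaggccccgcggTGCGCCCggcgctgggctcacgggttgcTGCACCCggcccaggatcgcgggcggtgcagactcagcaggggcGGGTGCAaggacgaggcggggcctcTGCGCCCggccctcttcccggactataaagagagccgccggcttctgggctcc

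The core was searched as TGCACNC or TGCGCNC on both strands, with overlapping matches counted separately. MT2A had 7 matches and MT1X had 4. Of 35116 RefSeq promoters of the same length, 24.8% held 1 or more, 0.0313% held 7 or more and 0.370% held 4 or more. Of 12 metallothionein genes looked up, 5 were matched, and the others with a sequence were MT1H with 8 matches and MT1B and MT4 with 3 each. Both MT2A and MT1X had a TATA box (TATAAA, in 10.7% of promoters on either strand), whose first base lay 29 and 30 bases before the start. The AP-1 site TGACTCA, which 4.20% of promoters held, occurred once upstream of MT2A, 104 to 98 bases before the start, and had no match in the MT1X window. Each of the 2 promoters had 2 matches to the GC box GGGCGG, which 42.6% of promoters held. The TATA, AP-1 and GC box letters were added to the search after the sequences had been seen. A match describes letters only and shows no binding.

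MT2A, usually among the most abundant metallothioneins in human cells, carried the strongest region of the cluster in every list. Its S5p region (56639492 to 56647028) had a fold of 214 and ranked 13 of 62530. Its S2p region (56641035 to 56646258) had a fold of 223 and ranked 2 of 54600, below a single region elsewhere in the genome. On chromosome 16, both were the strongest of their list. The 53BP1 region (56641605 to 56645293) had a fold of 17.1 and ranked 278 of 11604. It was 3689 bp wide, which made it the 26th widest 53BP1 region of the list. MT2A itself spans 932 bp, so all 3 regions reached well beyond it: the S5p region began 2986 bp before the gene and ended 3619 bp after it, and the S2p region began 1443 bp before and ended 2849 bp after.

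MT1E, an MT1 isoform, had an S5p region (56658725 to 56662796) with a fold of 179, ranked 38, and an S2p region (56659125 to 56663282) with a fold of 104, ranked 69. The 53BP1 region of MT1E (56659526 to 56660573) covered the gene start, with a fold of 12.1 and rank 866. A further 53BP1 region (56660943 to 56662033) lay 369 bp beyond it in the same S5p region. It was not assigned to MT1E, since it lies over 1 kb from the start and no MT1E end was used here. It had a fold of 5.24 and rank 7238, below the list's median fold of 6.02. At 1048 and 1091 bp wide, both were wider than the median 53BP1 region of 561 bp. The MT1E S5p region was the only S5p member holding more than 1 53BP1 region, a state found in 1.91% of all S5p regions.

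MT1X, an MT1 isoform at the far end of the cluster, had strong Pol II and weak 53BP1. Its S5p region (56715595 to 56720982) had a fold of 140 and ranked 102. Its S2p region (56716094 to 56721376) had a fold of 46.3 and ranked 475. The 53BP1 region (56716252 to 56716598) was 347 bp wide, with a fold of 4.45 and rank 8937 of 11604. By the −log10 q-value of 7.92 it stood higher, at the 46.0th percentile of the 53BP1 list against the 23.0th by fold. It took up 6.44% of the width of its S5p region, whereas 53BP1 took up 48.9% at MT2A and, over both 53BP1 regions there, 52.5% of the S5p region at MT1E.

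**Figure D1:**
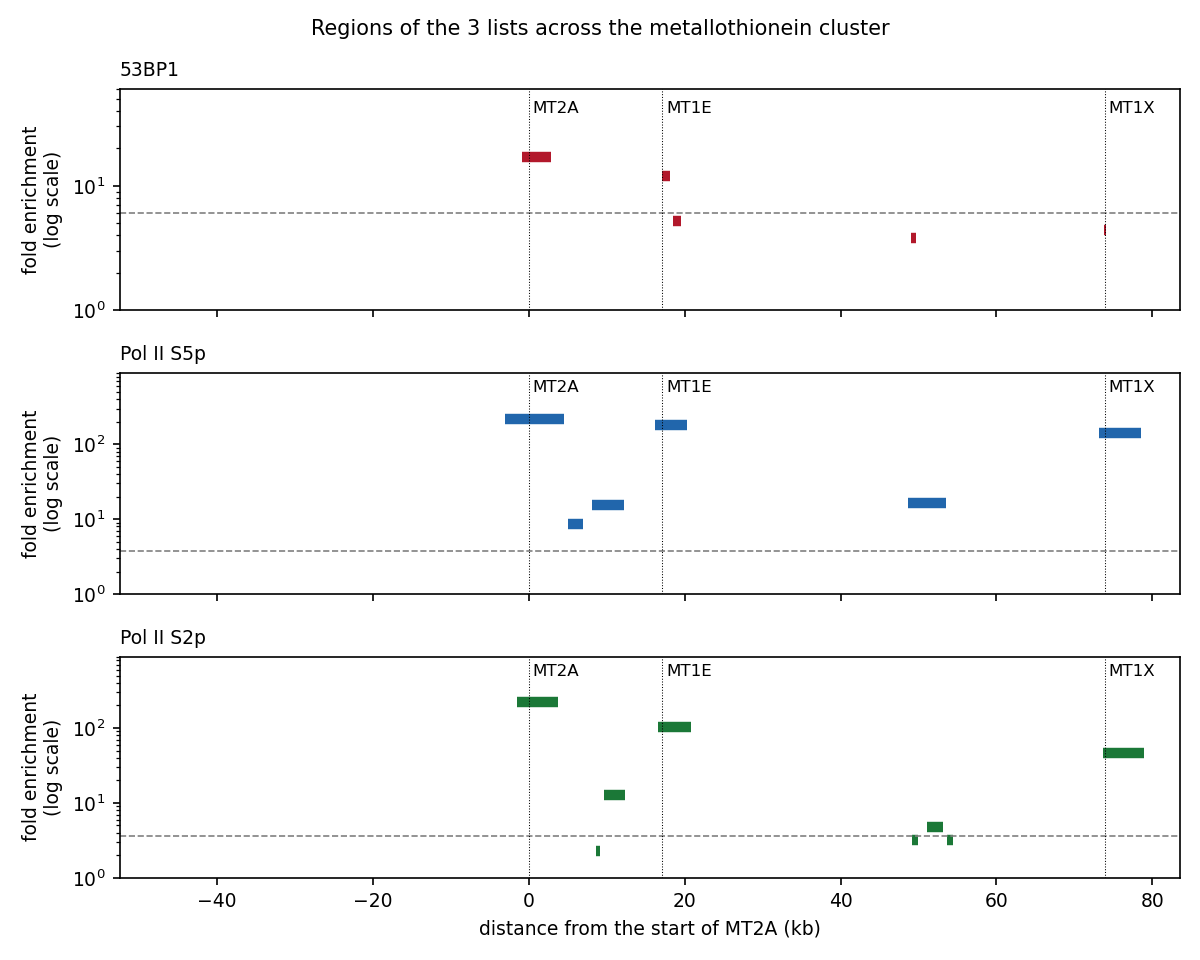
Regions of the 53BP1, Pol II S5p and Pol II S2p lists (1 panel each) by distance from the start of MT2A in kb (x axis) and fold enrichment on a log scale (y axis). Each bar spans a region, dotted lines mark the 3 gene starts, and the dashed line is the list's median fold (6.02, 3.76 and 3.58); the Pol II bars at MT2A, MT1E and MT1X stand far above it, and the 53BP1 bar at MT1X lies below it.

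The order MT2A, MT1E, MT1X therefore held in each of the 3 lists. The folds went 214, 179 and 140 for S5p, 223, 104 and 46.3 for S2p, and 17.1, 12.1 and 4.45 for 53BP1. Without replicates, neighbours in that order could not be set against a spread. All 3 genes were in the upper 5% of both Pol II lists by fold. For 53BP1, MT2A alone of the 5 members was in the upper 5%. Over whole lists that class holds 5% of S5p, 5.01% of S2p and 5.16% of 53BP1 regions, ties included. None of the other 3 S5p and 5 S2p members was in it.

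**Figure D2:**
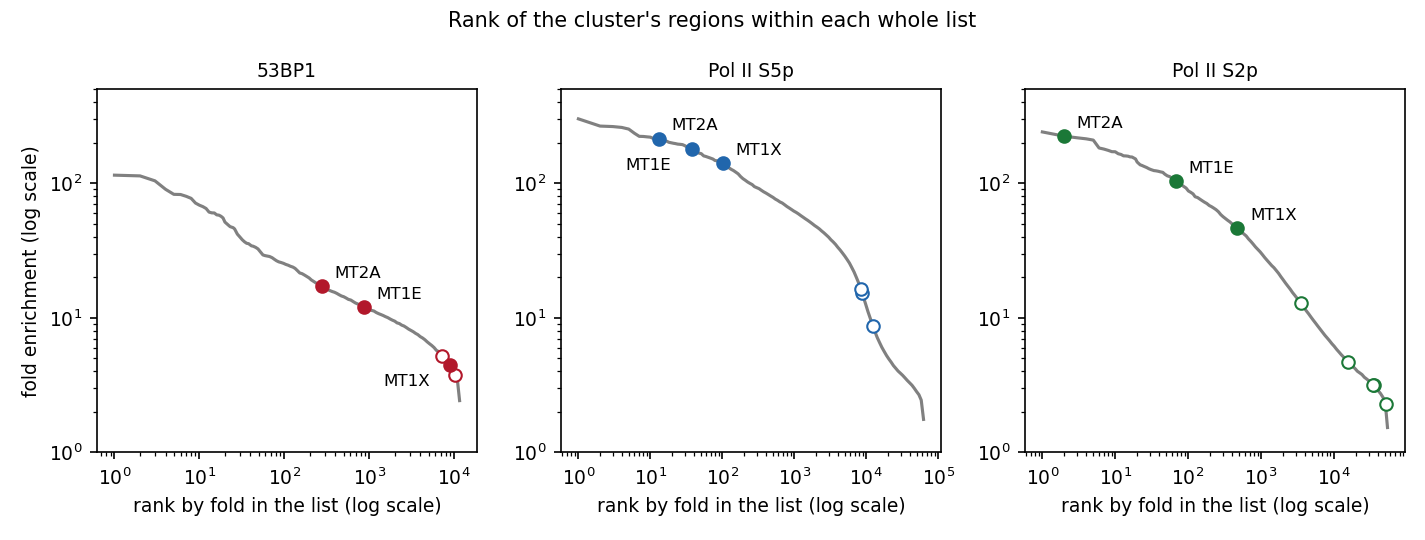
Fold enrichment (y axis, log scale) against rank within the list (x axis, log scale) for all regions of each list (grey line), with the cluster's regions as circles, filled for MT2A, MT1E and MT1X. The 3 genes sit at ranks 13, 38 and 102 for S5p and 2, 69 and 475 for S2p, but at 278, 866 and 8937 for 53BP1.

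Set only against S5p regions of higher fold, the 53BP1 fold at these genes was below that of all or most of them. The value compared is the highest 53BP1 fold within an S5p region. The 101 S5p regions stronger than that of MT1X include those of MT2A and MT1E. All 101 held 53BP1 and had a higher 53BP1 fold, with a lowest value of 9.16 and a median of 25.1 against 4.45 at MT1X. Likewise, all 37 S5p regions stronger than that of MT1E, that of MT2A included, had a higher 53BP1 fold. Their values went from 12.1136 upwards with a median of 29.1, against 12.0524 at MT1E. Of the 12 S5p regions stronger than that of MT2A, 11 had a higher 53BP1 fold and 1 a lower one (15.9), with a median of 35.0. The stronger S5p regions were often wider, with a median of 12725 bp for the 101 against 5388 bp at MT1X, and a wide region can hold several 53BP1 regions. In comparisons chosen after seeing the data, 24 of the 101 were no wider than that of MT1X. All 24 had a higher 53BP1 fold, from the 12.1 of MT1E upwards. The 43 of the 101 that held a single 53BP1 region were also all higher, from 11.4 upwards. At MT1E the same held for all 7 stronger S5p regions no wider than its own, and at MT2A for 5 of 6.

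Going down the S5p list to the rank of MT1X, 10 of 102 regions (9.8%) had a 53BP1 fold below that of every stronger region, the first by construction, and MT1E and MT1X were among them.

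The same values were set against a wider range of strong S5p regions. In the upper 1% of the S5p list, 625 regions, each held 53BP1, and the median 53BP1 fold was 13.6. A 53BP1 fold at or below that of MT1X occurred in 5 of them (0.8%), MT1X included. At or below the value at MT1E were 257 (41.1%), and at or below that at MT2A 433 (69.3%). Within this wider range only MT1X was low, whereas MT1E, at 12.1, was somewhat below the median and MT2A, at 17.1, above it. The next S5p region down the list with 53BP1 as low as at MT1X was at rank 269. Measured by the −log10 q-value of 53BP1 in place of the fold, a comparison chosen after seeing the data, 15 of the 625 were as low as MT1X. These counts describe 1 library of each ChIP and were not tested.

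**Figure D3:**
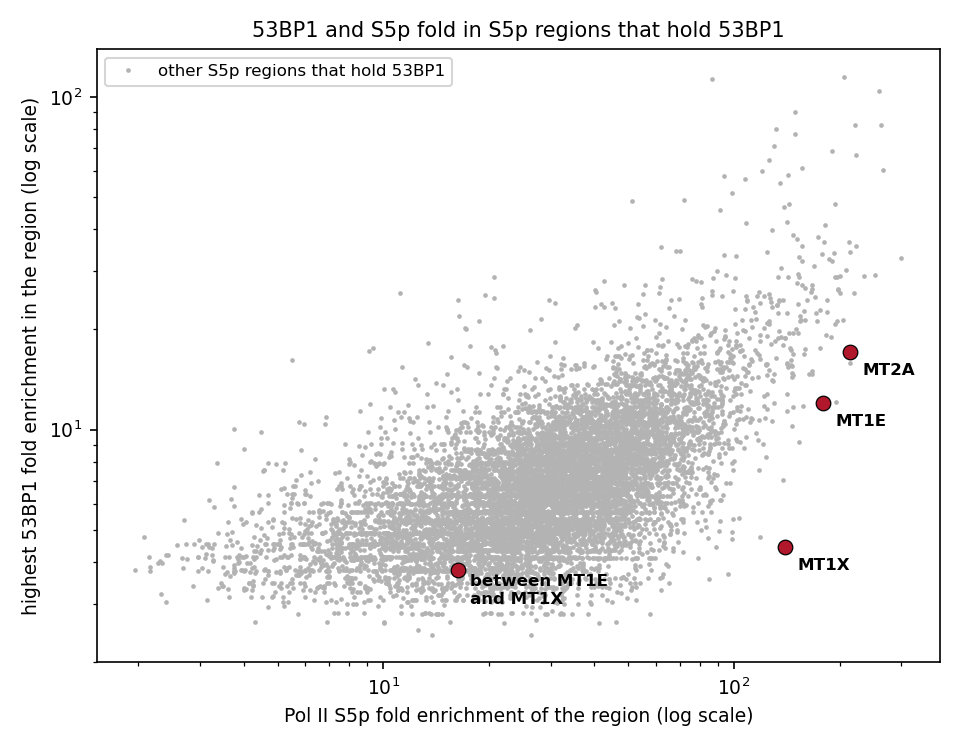
Highest 53BP1 fold enrichment within an S5p region (y axis, log scale) against the fold enrichment of that S5p region (x axis, log scale), for the S5p regions that hold 53BP1 (grey points) and the 4 of the cluster (red circles). MT2A, MT1E and MT1X lie at S5p folds of 214, 179 and 140, along the lower right edge of the points, with MT1X at a 53BP1 fold of 4.45.

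S2p at the same regions took other positions. All 12 S5p regions stronger than that of MT2A had a lower S2p fold, with a median of 37.9 against 223 at MT2A. At MT1E, 27 of the 37 stronger S5p regions had a lower S2p fold (median 50.1 against 104). At MT1X, 45 of 101 had a lower and 56 a higher S2p fold, with a median of 51.5 against 46.3. Thus S2p at MT1X was near the middle for S5p regions at least as strong, where its 53BP1 was below all of them.

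The summits, the points of highest signal within regions, separated S5p from S2p at all 3 genes. The S5p summit lay 73 bp after the start of MT2A, 154 bp after that of MT1E and 31 bp after that of MT1X. The S2p summit lay 1751, 1993 and 2267 bp after the start. For MT2A and MT1X, whose ends are known, that was 820 and 541 bp past the end of the gene. In all 5 S5p members that met S2p, the summit of the strongest S2p region in them lay at the higher coordinate, by 1678 bp at MT2A, 1839 bp at MT1E, 2236 bp at MT1X and 2079 and 2614 bp at the others. The latter 2 S5p members also held a weaker S2p region, whose summit lay at the lower coordinate, so for them the side depends on which S2p region is taken. MT2A and MT1X are on the forward strand, so there this is the downstream side. Over all S5p regions that met S2p, the summit of the strongest S2p region was at the higher coordinate in 50.3%. That share was taken without regard to strand, so it cannot show how often S2p lay downstream elsewhere. Among S5p regions of 3 kb or more that met S2p, 45% had summits at least 1678 bp apart, the smallest of the 5 spacings.

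The 53BP1 summit lay beside the S2p summit at MT2A and beside the S5p summit at MT1X. At MT2A the 53BP1 summit lay 1637 bp after the start, which is 706 bp past the gene's end, 114 bp from the S2p summit and 1564 bp from the S5p summit. The MT2A 53BP1 region (56641605 to 56645293) also covered the gene start and the S5p summit. Its summit is therefore 1 point in a wide region that spanned both Pol II summits. At MT1X the 53BP1 summit lay 28 bp after the start, 3 bp from the S5p summit and 2239 bp from the S2p summit. The 53BP1 region there, 347 bp wide, did not reach the S2p summit. The S5p region at MT1E held both arrangements. The 53BP1 summit of MT1E was 9 bp from the S5p summit and 1848 bp from the S2p summit, and the summit of the further 53BP1 region was 260 bp from the S2p summit and 1579 bp from the S5p summit. In the fifth 53BP1 member, between MT1E and MT1X, the 53BP1 summit lay 67 bp from the S5p summit and 21 bp from that of the nearest S2p region, which is the weaker of the 2 S2p regions there. In all, 3 of the 5 members were nearer to an S2p summit, against 35.9% of the 9115 53BP1 regions on both forms of Pol II, whose median distances were 78 bp to S5p and 192 bp to S2p.

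**Figure D4:**
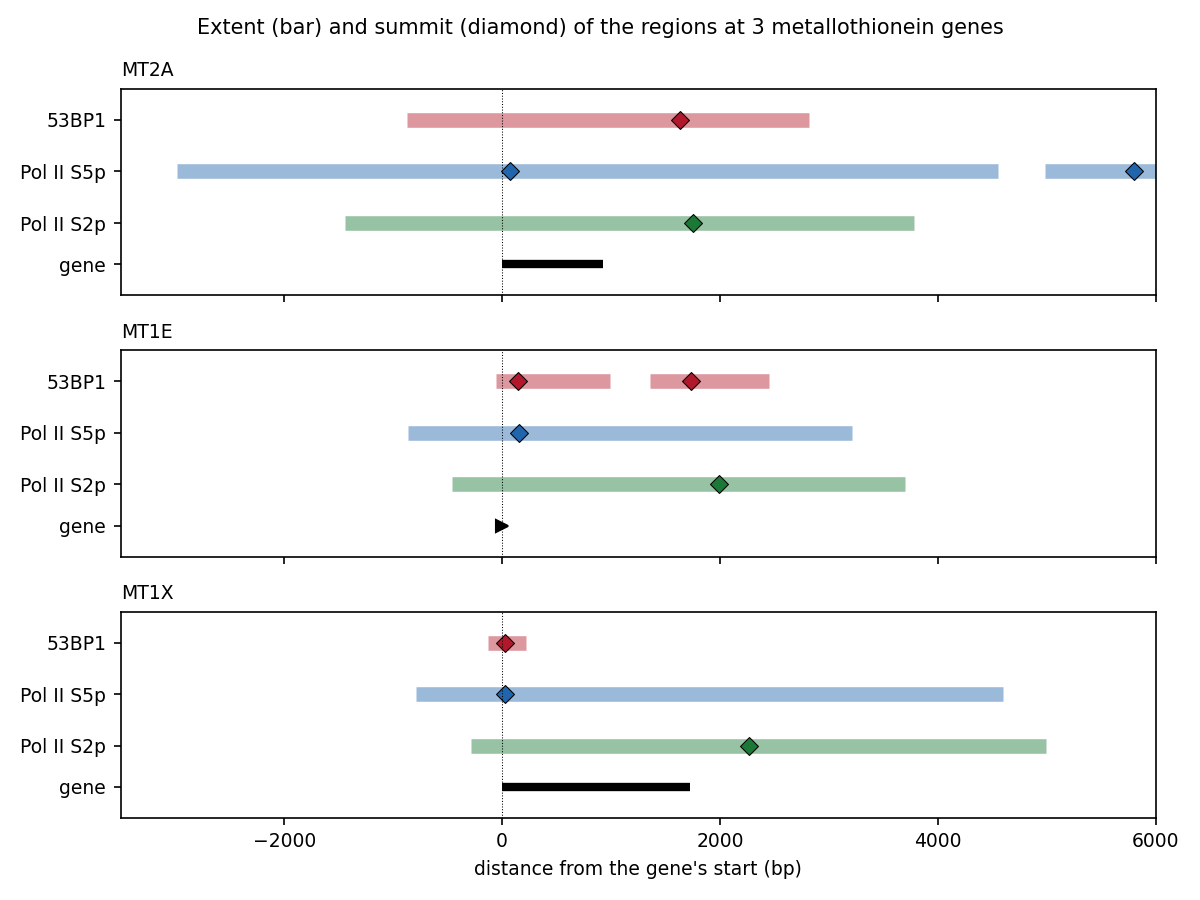
Extent (bars) and summit (diamonds) of 53BP1, Pol II S5p and Pol II S2p regions by distance from the gene start in bp (x axis) at MT2A, MT1E and MT1X; the black bar is the gene and the arrowhead marks the MT1E start. S5p diamonds lie 31 to 154 bp after the start and S2p diamonds 1751 to 2267 bp after it, while the 53BP1 diamond is beside S2p at MT2A and beside S5p at MT1X.

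Between MT2A and MT1E, where the RefSeq order places only the pseudogene MT1L, Pol II was called without 53BP1. The 2 S5p regions there had folds of 8.64 (56647462 to 56649396) and 15.4 (56650556 to 56654651), ranks 12342 and 8720. The weaker of them met no S2p. The stronger met 2 S2p regions, with folds of 2.29 (56651126 to 56651619) and 12.9 (56652196 to 56654782). The latter ranked 3520 and was the strongest S2p region of the cluster outside the named genes, and the former ranked 51735.

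The stretch between MT1E and MT1X holds 10 metallothionein genes and pseudogenes and an uncharacterised noncoding RNA in the RefSeq order, and most of it was empty. No region of any list was called from 56663283 to 56691148 (27.9 kb) or from 56696865 to 56715594 (18.7 kb). Between these gaps lay an S5p region (56691149 to 56696051) with a fold of 16.3 and rank 8417. A 53BP1 region (56691576 to 56692120) with a fold of 3.78 and rank 10363, the lowest of the 5, lay at its lower end. Also called there were 3 S2p regions, with folds of 3.16 (56691603 to 56692385), 4.73 (56693528 to 56695572) and 3.16 (56696198 to 56696864). The last of them lay 146 bp beyond the S5p region and was the only S2p member that met no S5p. Which gene these regions belong to was not determined, because the gene table is of another build. Upstream of MT2A, the 49.5 kb from 56590000 to 56639491 held no region in any list.

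Members were counted as meeting a region of another list where they shared 1 bp or more, wherever the summits lay. Each count below stands beside the share of the whole list. All 5 53BP1 members met S5p (97.6% of the whole list did) and all 5 met S2p (78.9%). Of the 6 S5p members, 4 met 53BP1 (15.2% of the list), 5 met S2p (60.2%), 4 met both (12.3%) and 2 met more than 1 S2p region (5.46%). Of the 8 S2p members, 7 met S5p (54.9%) and 4 met 53BP1 (13.9%). The share of 53BP1 members on S5p is near that of the list. Of the S5p members that met 53BP1, 3 were in the upper 1% of the S5p list, in which every region held 53BP1.

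Against 23297 windows of the same 130 kb length along chromosomes 1 to 22 and X, the cluster ranked higher for its strongest Pol II fold than for its number of Pol II regions. Its strongest S5p fold was exceeded in 12 windows, its strongest S2p fold in 1 and its strongest 53BP1 fold in 249. Its 6 S5p regions were at the 85.5th percentile of windows and its 8 S2p regions at the 89.2nd, while its 5 53BP1 regions were at the 99.0th. S5p regions covered 20.7% of the interval, S2p regions 15.3% and 53BP1 regions 5.17%. The interval was drawn around the genes, so these percentiles are a description. Most windows held no region of a given list. Among windows with at least 1, the number of regions was at the 67.6th percentile for S5p, the 69.2nd for S2p and the 96.4th for 53BP1.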

How the data were processed

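MCF10A cells were crosslinked with formaldehyde, and sonicated chromatin went through ChIP and the NEBNext Ultra II DNA library kit, per the labels' protocols. The files are the authors' deposited region lists, 1 for each ChIP. Per the submitters' processing notes, bcl2fastq 2.20.0.422 wrote the reads and positions refer to hg19. Neither the aligner nor the region caller with its control is named, and pooling of reads is likewise not given in the sources used here. Each region has a fold enrichment (the authors' ratio over background) and −log10 values of p and q (p-value and q-value) as deposited. The deposited score, which in 100% of rows was −log10 q times 10 to within 1 unit, was not used. The summit offset was used as deposited.

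Rows on sequences other than chromosomes 1 to 22 and X were dropped: 1 for 53BP1, 2 for S5p and 1 for S2p. Positions are 1-based. Members were regions sharing 1 bp or more with the interval. A region belonged to a gene if it met the gene or 1 kb around its start. Percentiles are the percent of a list at or below a value. Regions met where they shared 1 bp or more. The overlap and percentile steps were tested on simulated data with known answers. Promoter sequences are from RefSeq (GRCh38.p14), and no position was converted between builds. The genes named are those with hg19 positions, and the cluster, its members and the lists were chosen with earlier results of these data known, although the interval itself is a rule of position. No protein sequence was used here, so the planned protein comparison was not run. Alternatives tried were wider or summit-based membership, a limit of 5 on −log10 q, lists of equal length, other rankings, gene distances, overlap definitions and tilings, and the forward strand alone. Software was Python 3.11.15, pandas 2.3.3, numpy 2.4.6, matplotlib 3.10.9 and scipy 1.17.1.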

Additional observations from a re-analysis of the deposited data

How the results depend on the processing

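Of 132 alternative values, 84 stayed within 1.5 times the count or within the 95% Clopper-Pearson interval of the percentile, and 48 did not. That interval covers counting error only and serves here as a yardstick. Of the 48, 29 were percentiles of single members, ranked by −log10 q-value or over chromosome 16; S2p at 56651126 went from 5.25 to 19.6 and 53BP1 at MT1X from 23.0 to 46.0 by −log10 q-value. The other 19 follow. A −log10 q-value limit of 5 left 5 of the 8 S2p members, and limiting S2p to its strongest 11604 regions left 4. Taking 3 kb around the start gave MT1E 2 53BP1 regions in place of 1. With regions replaced by 250 bp on each side of the summits, 3 53BP1 members met S5p and 3 met S2p, 2 S5p members met S2p, and 2 S2p members met S5p. Among windows with a region, the percentiles for 53BP1 were 96.4 by number, 98.9 by covered bases and 96.0 by strongest fold. For S5p they were 67.6, 84.4 and 99.9, and for S2p 69.2 by number and 64.5 by covered bases. These fall because empty windows are left out. On the forward strand alone, MT1H had 5 metal response element matches and MT4 had 1. With 53BP1 taken by −log10 q-value, a choice made after seeing the data, 15 S5p regions of the upper 1% were as low as MT1X in place of 5. Among stronger S5p regions with a single 53BP1 region, 100% had a higher 53BP1 fold than MT2A, against 91.7% of all. Ranking members by −log10 q-value or over chromosome 16 changed no count of members in the upper 5% by over 1.5 times. A single library per ChIP and unknown depth limit every value, and an unlisted stretch may hold signal below the submitters' threshold. No paired analysis was possible because there are no replicates to pair.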

Other observations

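Outside the interval, the nearest region of each list lay 42.3 to 87.3 kb from the outermost member of that list. On the lower side, this distance includes the 49.5 kb at the start of the interval that held no region. Below the interval, the last S5p region (56553257 to 56554598) had a fold of 37.7 and ended 84.9 kb before the first S5p member. A 53BP1 region with a fold of 8.46 and an S2p region with a fold of 5.54 lay at the same place. Above it, the next S5p region (56763502 to 56764711) began 42.5 kb after the last S5p member, with a fold of 40.3. It coincided with a 53BP1 region of fold 4.49 and an S2p region of fold 5.67. The 53BP1 fold of 4.49 there is close to the 4.45 of MT1X, at an S5p fold of 40.3 against 140. No hg19 gene was assigned to either place.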
